A study of Mus musculus with 28 samples.

Results

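The transforming growth factor beta (TGF-beta) ligand genes Tgfb1, Tgfb2 and Tgfb3 were followed with the latent TGF-beta binding protein genes Ltbp1, Ltbp2, Ltbp3 and Ltbp4, the co-receptor gene Tgfbr3 and the TGF-beta-induced matrix gene Tgfbi. These 9 genes were taken by symbol from a count table of 54429 genes, of which 28192 had at least 1 count. Expression was measured by RNA sequencing of polyadenylated RNA from O9-1, a cell line of mouse cranial neural crest, the migratory embryonic tissue from which most facial bone, cartilage and connective tissue forms. The series title and design text name the purpose, which was to compare differentiation at 21% O2 (normoxic) with that at 0.5% O2 (hypoxic).

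The 28 libraries formed 8 groups, with 4 libraries in each normoxic and 3 in each hypoxic group. Proliferating cells were kept in medium conditioned by STO feeder cells with 15% fetal calf serum, 25 ng/ml basic fibroblast growth factor and 5 ng/ml leukemia inhibitory factor. For the chondrocyte groups the cells spent 3 days in osteogenic medium and then 7 days as micromasses on matrigel in 5% serum with insulin-transferrin-selenium, 0.1 µM dexamethasone, 10 ng/ml TGF-beta3 and 50 ng/ml BMP-2. Osteoblast groups were kept for 10 days in 10% serum with 10 mM beta-glycerophosphate, 0.1 µM dexamethasone and 100 ng/ml BMP-2. Smooth muscle groups were kept for 3 days in 10% serum. TGF-beta3 was therefore an added agent in the chondrocyte groups alone. Medium, culture form and time differ together between lineages, so their parts in a lineage difference cannot be told apart. All groups came from 1 cell line, and the labels do not say that replicates were separate cultures, so p-values measure the spread between these libraries.

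TGF-beta ligands are made as precursors whose cleaved propeptide stays bound to the growth factor and keeps it latent. Latent TGF-beta binding proteins attach to that propeptide and anchor the complex to fibrillin and fibronectin fibres, from which integrins and proteases can release the active ligand. Active ligand assembles type I and type II receptors, which phosphorylate Smad proteins. In the developing head, TGF-beta signalling acts in palate, bone and cartilage formation from the neural crest.

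Library totals lay between 19869271 and 64693346 counts. Levels below are CPM (counts per 1e+06 counts of a library, scaled by the trimmed mean of M values over all 28 libraries), given in replicate order. Fold changes come from edgeR's quasi-likelihood test on the counts of the groups compared, and every adjusted p is from that test with Benjamini-Hochberg adjustment over all genes tested. A gene was called at an adjusted p under 0.05, and SE denotes the standard error of its log2 fold change. All 9 genes passed the low-count filter in all 15 fits.

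Some libraries stood apart or went against their labels. In the hypoxic smooth muscle libraries 12.4% ± 0.849 (SD, n = 3) of counts came from mitochondrial ribosomal RNA, beside at most 0.0889% in the other 25 libraries. The summed level of 4 smooth muscle markers (Acta2, Tagln, Cnn1 and Myh11) was 27.8 to 40.9 CPM in that group, below the 46.7 to 51.1 CPM of normoxic proliferating cells and the 3432 to 3844 CPM of normoxic smooth muscle cultures. These markers did not set smooth muscle cultures apart, with 3103 to 4749 CPM in normoxic osteoblast and 1925 to 2290 CPM in normoxic chondrocyte cultures. Under library-size scaling in place of TMM, the median change over all genes tested went from -0.12 to -1.49 on the log2 scale between hypoxic and normoxic smooth muscle cultures and from -0.07 to -1.35 between hypoxic smooth muscle and hypoxic proliferating cells. Replicate 4 of the normoxic osteoblast group differed from its 3 partners, with the chondrocyte markers Col2a1, Acan and Sox9 higher, at 786, 375 and 196 CPM against at most 44.1, 99.5 and 55.4 CPM, and Col11a1 lower, at 1470 CPM against 1645 to 1667 CPM. Of the osteoblast markers, Sp7 and Alpl were higher, at 46.0 and 40.6 CPM against at most 1.37 and 2.56 CPM. Runx2 was lower, at 58.0 CPM against 60.3 to 70.0 CPM. The smooth muscle markers Acta2 and Tagln were higher, at 4222 and 512 CPM against at most 3001 and 251 CPM. The osteoblast marker Ibsp, a bone matrix gene, was at 1.15 CPM in the normoxic osteoblast group and at 1169 CPM in the normoxic chondrocyte group. The osteoblast mean joins 0.389 to 0.480 CPM in replicates 1 to 3 and 3.25 CPM in replicate 4. The summed level of 5 neural crest markers (Twist1, Tfap2a, Sox9, Sox10 and Crabp1) was 2369 to 2535 CPM in normoxic and 2872 to 3125 CPM in hypoxic proliferating cells. It was 222 to 492 CPM in the 4 chondrocyte and osteoblast groups, 886 to 1102 CPM in normoxic and 2856 to 3562 CPM in hypoxic smooth muscle cultures, and its part in the differences between groups was not tested. Of the 5, Sox10 had no count in 7 of the 8 groups. The sum does not give the direction of each gene, and 4 of the 5 were tested against proliferating cells. In normoxic chondrocyte cultures 1 was called higher and 2 lower (median log2 change -0.24), and in hypoxic ones 1 and 1 (-0.04). Osteoblast cultures had 1 and 1 (0.03) in the normoxic group and 3 and 1 (0.66) in the hypoxic group. Smooth muscle cultures had 1 and 1 (-0.01) in the normoxic group and 2 and 1 (0.87) in the hypoxic group. In bulk RNA, fewer cells of a type and less RNA per cell cannot be told apart.

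**Figure D1:**
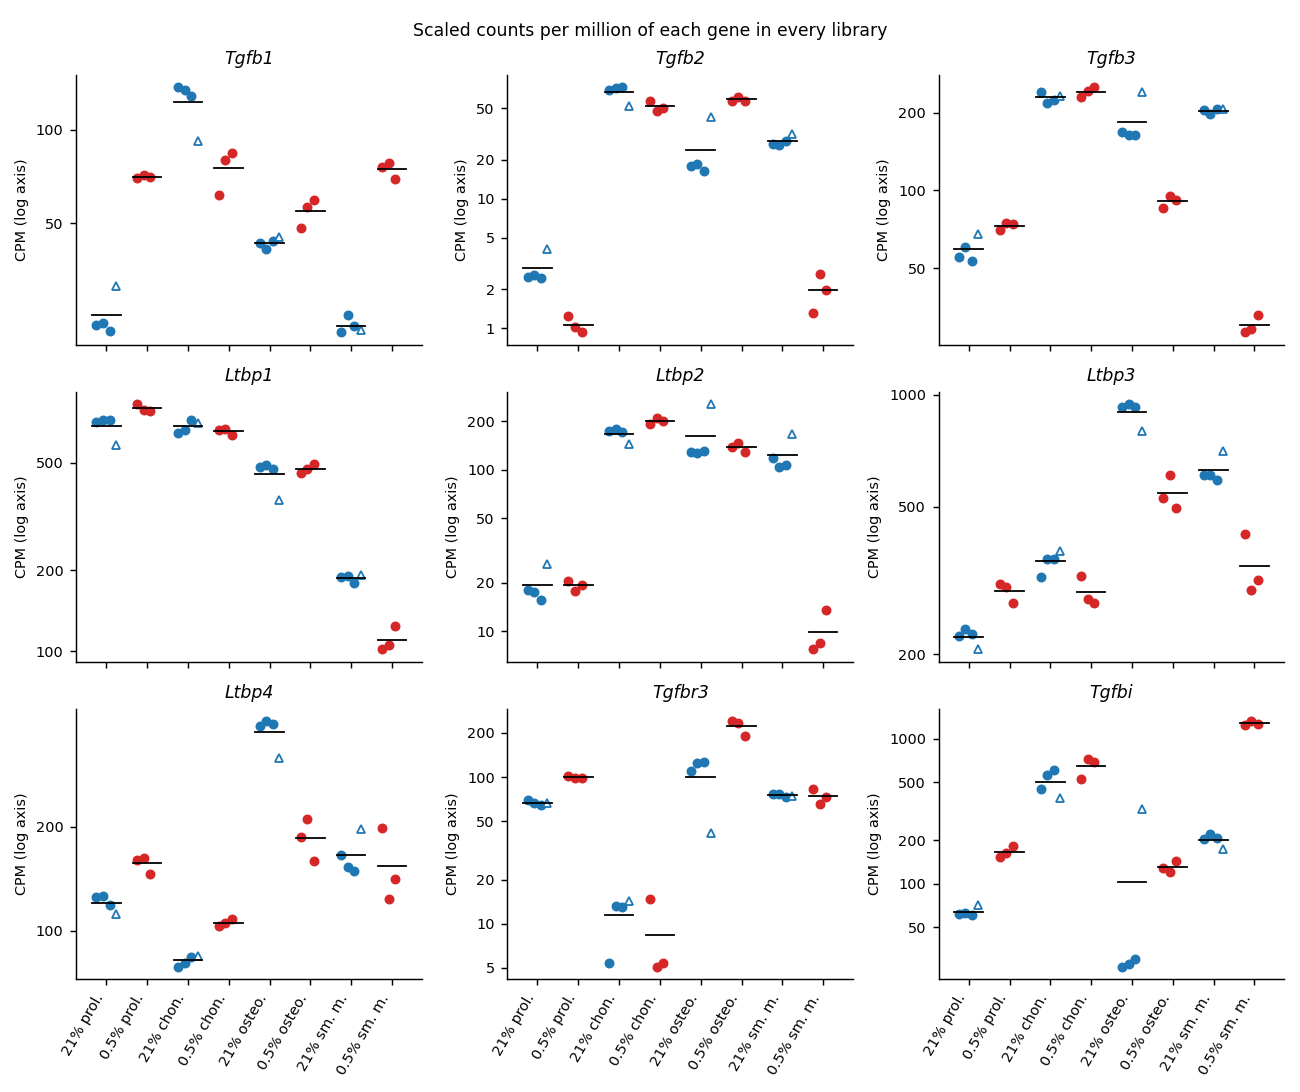
Scaled CPM (log axis) of the 9 genes in each library of the 8 groups, in blue for 21% O2 and red for 0.5% O2, with open triangles for replicate 4 and bars for group means. Tgfb2 spans the widest range, and replicate 4 of the normoxic osteoblast group sits at 325 CPM for Tgfbi while its partners lie between 26.9 and 30.4 CPM.

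The 3 ligand genes answered differently to lineage and oxygen. Tgfb2 and Tgfb3 were higher in all 3 normoxic differentiated cultures than in proliferating cells, Tgfb2 by 8.29-fold to 23.9-fold and Tgfb3 by 3.10-fold to 3.95-fold, whereas Tgfb1 was higher in chondrocyte and osteoblast cultures alone. At 0.5% O2, Tgfb1 was higher in proliferating and smooth muscle cells and lower in chondrocyte cultures, and Tgfb2, Tgfb3 and the binding protein gene Ltbp2 were 13.2-fold, 6.15-fold and 11.4-fold lower in smooth muscle cultures (34.1-fold, 15.9-fold and 29.4-fold with library-size scaling). Among the binding protein genes, Ltbp3 and Ltbp4 were highest in normoxic osteoblast cultures and lower there at 0.5% O2, and Ltbp1 was lowest in smooth muscle cultures.

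At 21% O2, 6 of the 9 genes were called higher and 2 lower in chondrocyte than in proliferating cultures, where 37.7% and 37.2% of 14360 tested genes were. The osteoblast comparison called 6 higher and 1 lower (40.9% and 37.8% of all genes), or 7 and 2 without normoxic replicate 4, and the smooth muscle comparison 7 higher and 1 lower (background 40.8% and 38.9%). At 0.5% O2 the counts were 4 higher and 3 lower in chondrocyte (34.9% and 34.6% of all genes), 6 and 3 in osteoblast (36.2% and 35.1%) and 3 and 4 in smooth muscle cultures (33.8% and 36.2%). With library-size scaling the hypoxic counts were 4 and 4 (23.4% and 50.2% of all genes with that scaling), 4 and 3 (27.9% and 45.0%), and 1 and 7 (12.4% and 70.6%), and without hypoxic proliferating replicate 3 the smooth muscle counts were 1 and 3. Oxygen alone changed 7 genes upward and 1 downward in proliferating cells (33.1% and 32.3% of all genes), or 4 and 1 with all 8 groups in 1 fit, in which the Ltbp1, Tgfbr3 and Tgfbi calls were lost. The counts were 2 and 3 in chondrocyte cultures (10.4% and 11.8%), or 1 and 3 with library-size scaling (7.68% and 16.4% of all genes) and 1 and 2 with all 8 groups in 1 fit. Leaving out normoxic replicate 2 or 3 or hypoxic replicate 2 or 3 left 1 and 1 of these chondrocyte calls, and leaving out normoxic replicate 1 left 1 and 2. Osteoblast cultures had 3 and 3 (27.0% and 27.3%), or 4 and 3 without normoxic replicate 4, and smooth muscle cultures 2 and 5 (35.4% and 40.2%), or 2 and 7 with library-size scaling (13.4% and 72.6% of all genes). Chondrocyte cultures compared with osteoblast cultures gave 3 higher and 3 lower at 21% O2 (28.6% and 31.1%), or 6 and 3 without osteoblast replicate 4, and 5 and 3 at 0.5% O2 (28.6% and 29.0%). With backgrounds of this size, a call by itself sets a gene little apart, and sizes and directions are given gene by gene. The comparisons within an oxygen level share their proliferating libraries.

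Tgfb1 (ENSMUSG00000002603, GRCm38 chromosome 7, 25687002 to 25705077, plus strand) encodes the most widely studied TGF-beta ligand. Proliferating cells held 23.4, 23.9, 22.4 and 31.4 CPM at 21% O2 and 69.9, 71.5 and 70.4 CPM at 0.5% O2. Every hypoxic library was above every normoxic one, a rise of 1.48 on the log2 scale (SE 0.0984, adjusted p = 5.54e-08) or 2.79-fold. Smooth muscle cultures had 22.2, 25.3, 23.3 and 22.7 CPM at 21% O2 and 76.0, 78.3 and 69.4 CPM at 0.5% O2, so the groups again did not overlap. That rise was 3.51-fold (log2 1.81, SE 0.093, adjusted p = 1.33e-10), and with scaling by library size alone it shrank to 0.44 on the log2 scale. In osteoblast cultures the level went from 43.3 ± 1.63 CPM (SD, n = 4) to 54.6 ± 5.64 CPM (SD, n = 3), a rise of 1.27-fold (log2 0.34, adjusted p = 0.0105) that library-size scaling left at 0.18 with an adjusted p of 0.106.

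Chondrocyte cultures went the other way. Tgfb1 stood at 137, 134, 129 and 91.9 CPM at 21% O2, its highest levels in the series, and at 61.7, 80.1 and 83.9 CPM at 0.5% O2. The hypoxic level was 1.65-fold lower (log2 -0.73, SE 0.163, adjusted p = 0.0146), and the call was lost without the low-count filter (adjusted p = 0.0669). The summed chondrocyte markers were also lower, at 7161 to 14052 CPM at 21% O2 and 5425 to 5775 CPM at 0.5% O2, with 2 of 4 called lower (median -0.96), and their part in the oxygen differences was not tested. Against proliferating cells, the gene rose 4.99-fold in normoxic chondrocyte cultures (log2 2.32, SE 0.148, adjusted p = 1.7e-07), while at 0.5% O2 the difference was 0.09 (SE 0.102, adjusted p = 0.439), and 0.23 (adjusted p = 0.0023) without hypoxic chondrocyte replicate 1. The test of the difference between these changes, hypoxic minus normoxic, gave -2.19 on the log2 scale (SE 0.21, adjusted p = 1.86e-06). For osteoblast cultures the same term was -1.10 (adjusted p = 8.9e-06), with a 1.70-fold rise at 21% O2 and a 1.29-fold fall at 0.5% O2. The hypoxic proliferating, smooth muscle and chondrocyte groups, at 70.6, 74.6 and 75.3 CPM, overlapped with one another. The smooth muscle group was called above the proliferating one at 0.25 (adjusted p = 0.0178), which library-size scaling turned to -1.02, and the call was lost without any 1 of the hypoxic proliferating libraries (adjusted p from 0.0637 to 0.101).

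The 250 bases before the RefSeq start site of Tgfb1 (GRCm38.p6, chr7:25686752-25687001, plus strand) are shown because the gene had both its oxygen and its lineage changes in the same cells. They are printed beside those of Tgfb2 (chr1:186705990-186706239, minus strand) and Ltbp2 (chr12:84876533-84876741, minus strand), which varied together over the libraries. In the Ltbp2 window, 41 bases next to the start site lie inside the annotated gene and are left out, which leaves 209. Capitals mark matches on either strand to ACGTG or GCGTG, the core bound by hypoxia-inducible factors, and to CAGAC, a core bound by Smad proteins.
Tgfb1: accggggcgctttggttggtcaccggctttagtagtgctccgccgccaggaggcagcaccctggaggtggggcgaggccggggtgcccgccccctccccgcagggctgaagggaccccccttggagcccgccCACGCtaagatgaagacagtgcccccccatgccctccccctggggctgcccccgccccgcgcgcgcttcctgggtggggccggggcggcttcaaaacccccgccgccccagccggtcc
Tgfb2: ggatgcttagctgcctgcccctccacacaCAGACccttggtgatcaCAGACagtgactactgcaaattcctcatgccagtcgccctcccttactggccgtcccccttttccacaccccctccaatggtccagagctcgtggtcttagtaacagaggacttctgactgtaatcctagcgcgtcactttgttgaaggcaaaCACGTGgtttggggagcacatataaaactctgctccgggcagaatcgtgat
Ltbp2: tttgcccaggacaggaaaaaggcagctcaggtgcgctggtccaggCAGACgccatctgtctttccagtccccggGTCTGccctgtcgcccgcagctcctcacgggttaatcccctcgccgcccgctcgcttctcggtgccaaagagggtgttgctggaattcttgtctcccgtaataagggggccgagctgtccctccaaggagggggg

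Of the 9 genes, 7 had an entry in the RefSeq promoter table, with 10 start sites in all. Tgfb1 held 1 hypoxia-inducible factor core, on the minus strand and beginning 118 bases before the start site, and no Smad core. Tgfb2 held 2 Smad cores, 221 and 204 bases before its start, and an overlapping pair of ACGTG matches on opposite strands that together read as the palindrome CACGTG, 51 bases before it. Ltbp2 held 2 Smad cores, and its 1 GCGTG match lay in the part left out, 37 bases before the start. Such short motifs are common: among 32851 windows of this length, 38.6% held a hypoxia-inducible factor core and 42.2% a Smad core. The matches describe the letters of these windows, and binding was not measured.

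Tgfb2 (ENSMUSG00000039239, chromosome 1, 186622792 to 186705989, minus strand), the ligand whose loss in mice disturbs craniofacial and heart development, changed the most in size. Proliferating cells had 2.51, 2.59, 2.46 and 4.08 CPM at 21% O2 and 1.25, 1.02 and 0.931 CPM at 0.5% O2, so an already low level was 2.71-fold lower at 0.5% O2 (log2 -1.44, SE 0.259, adjusted p = 0.000232). The hypoxic values rest on 27 to 38 counts per library. In chondrocyte cultures the gene reached 69.1, 72.1, 73.5 and 52.0 CPM at 21% O2 and 57.4, 48.2 and 50.4 CPM at 0.5% O2. These levels were 23.9-fold (log2 4.58, SE 0.174, adjusted p = 1.47e-09) and 48.4-fold (log2 5.6, SE 0.135, adjusted p = 1.13e-12) above proliferating cells at the same oxygen level. Between the oxygen levels, the chondrocyte groups overlapped and differed by -0.38 (SE 0.118, adjusted p = 0.0435), a call lost in 7 of 16 alternatives, among them without normoxic replicate 1, 2 or 3 or hypoxic replicate 2 or 3 (adjusted p from 0.0866 to 0.147).

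In osteoblast cultures Tgfb2 was higher at 0.5% O2. Cell type markers moved with oxygen in these cultures too: the sum of 5 osteoblast markers was 63.5 to 148 CPM at 21% O2 and 368 to 398 CPM at 0.5% O2, and that of the smooth muscle markers 3103 to 4749 and 1723 to 2031 CPM. The 148 CPM was normoxic replicate 4. Replicates 1 to 3 had 63.5 to 73.7 CPM, of which Runx2 alone was 60.3 to 70.0 CPM. Normoxic proliferating cells had a sum of 57.2 to 64.8 CPM. The part of these markers in the osteoblast oxygen differences of the 9 genes was not tested. The normoxic libraries held 18, 18.5, 16.3 and 43.3 CPM and the hypoxic ones 57.1, 61.6 and 57.4 CPM, with no overlap. The rise was 2.45-fold (log2 1.29, SE 0.34, adjusted p = 0.0142), or 1.74 on the log2 scale (adjusted p = 1.53e-09) without normoxic replicate 4, the highest of its group. With no filter on low counts the adjusted p was 0.0607. Relative to proliferating cells, Tgfb2 rose 8.29-fold at 21% O2 (log2 3.05, and 2.57 without replicate 4) and 54.7-fold at 0.5% O2 (log2 5.77, SE 0.133). The term for the difference between them was 2.76 (SE 0.502, adjusted p = 0.000443), and 3.21 without replicate 4. The 2 hypoxic lineages at high Tgfb2, chondrocyte and osteoblast, did not differ past the threshold (log2 -0.17, SE 0.0921, adjusted p = 0.144).

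Smooth muscle cultures split by oxygen. Normoxic libraries had 26.8, 26.3, 27.8 and 31.7 CPM of Tgfb2, a 9.64-fold rise over proliferating cells (log2 3.27, SE 0.141, adjusted p = 6.07e-12). Hypoxic libraries had 1.32, 2.62 and 1.97 CPM, from 18 to 27 counts each, which was 13.2-fold lower than at 21% O2 (log2 -3.73, SE 0.203, adjusted p = 2.77e-10, and -5.09 with library-size scaling). Against hypoxic proliferating cells the difference was 1.05 (SE 0.45, adjusted p = 0.0568), and it passed the threshold with DESeq2 (adjusted p = 0.0349) and limma-voom (adjusted p = 0.046). It also passed without hypoxic smooth muscle replicate 1 (1.28, adjusted p = 0.0193). With library-size scaling it was -0.23 (adjusted p = 0.634). Gm29491, on the opposite strand, overlaps 124 exonic bases of Tgfb2 but held 65 counts in all libraries together.

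Tgfb3 (ENSMUSG00000021253, chromosome 12, 86056745 to 86079041, minus strand) encodes the ligand required for fusion of the palatal shelves, the same protein that was added to the chondrogenic medium. Its transcript stood at 55.4, 60.1, 53.1 and 67.8 CPM in normoxic and at 70.1, 74.7 and 74.3 CPM in hypoxic proliferating cells, 1.23-fold higher at 0.5% O2 (log2 0.30, adjusted p = 0.00263). Chondrocyte cultures held 241, 218, 224 and 231 CPM at 21% O2 and 229, 241 and 251 CPM at 0.5% O2. The rise was 3.95-fold at 21% O2 (log2 1.98, SE 0.0746, adjusted p = 3.49e-10) and 3.30-fold at 0.5% O2 (log2 1.72, SE 0.063, adjusted p = 4.74e-11), and the chondrocyte groups overlapped (difference 0.06, SE 0.0643, adjusted p = 0.577). Tgfb3 was also 3.10-fold higher in normoxic osteoblast and 3.37-fold higher in normoxic smooth muscle cultures than in proliferating cells, and the part of the added TGF-beta3 in the chondrocyte level was not tested. Gm37804 and Gm48008, on the opposite strand, overlap 163 and 257 exonic bases and held 851 and 890 counts, against 120528 for Tgfb3.

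The osteoblast and smooth muscle levels of Tgfb3 depended on oxygen. Osteoblast libraries had 168, 164, 164 and 240.2 CPM at 21% O2 against 85.6, 95.2 and 92.0 CPM at 0.5% O2, a 2.02-fold lower hypoxic level (log2 -1.01, SE 0.147, adjusted p = 0.000397, and -0.86 without normoxic replicate 4). Smooth muscle libraries had 205, 197, 206 and 206 CPM at 21% O2 and 28.2, 29.0 and 32.9 CPM at 0.5% O2. The hypoxic group was 6.15-fold lower (log2 -2.62, SE 0.0895, adjusted p = 1.21e-12, and -3.99 with library-size scaling) and lay below every other group of the series, proliferating cells included (log2 -1.11, SE 0.096, adjusted p = 1.08e-06, and -2.38 with library-size scaling). The terms for unequal change from the proliferating state were -1.27 for osteoblast (adjusted p = 1.53e-05) and -2.88 for smooth muscle (SE 0.114, adjusted p = 1.45e-15, and -4.22 with library-size scaling). For chondrocyte cultures the term was -0.23 (adjusted p = 0.0635), and it passed in 7 of 23 alternatives, among them DESeq2 (-0.27, adjusted p = 0.0254) and leaving out normoxic proliferating replicate 4 (-0.30, adjusted p = 0.0052).

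**Figure D2:**
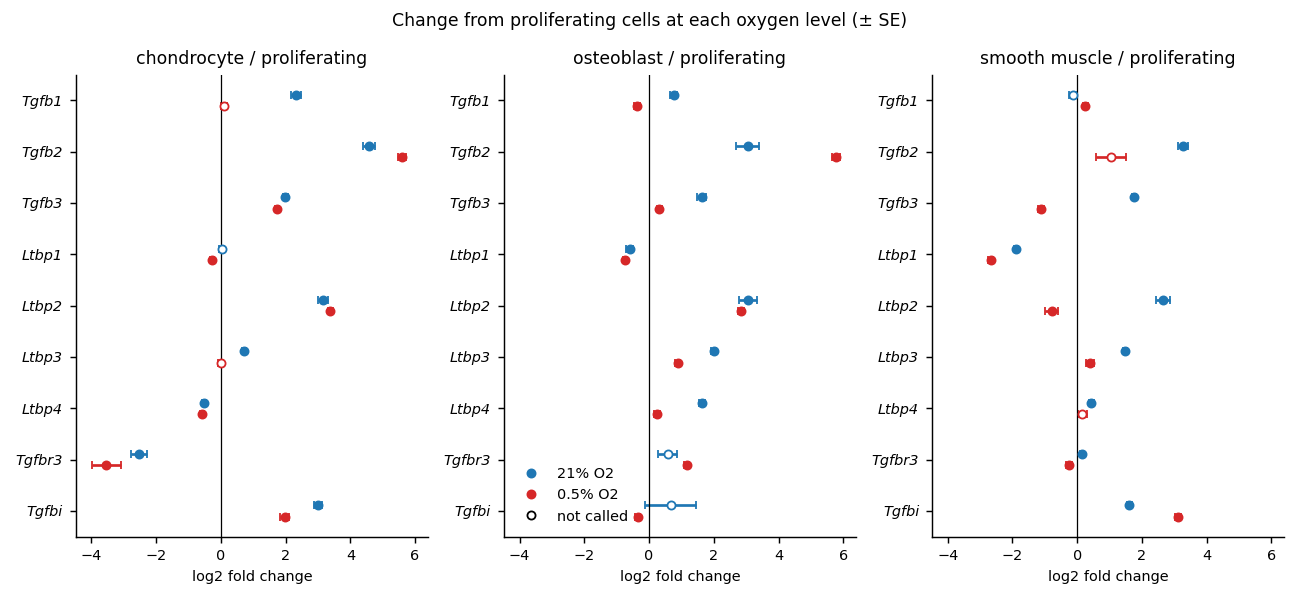
Log2 fold change of each gene from proliferating cells in chondrocyte, osteoblast and smooth muscle cultures, in blue at 21% O2 and red at 0.5% O2, with bars for ± SE and open symbols where the gene was not called. Tgfb1 parts most in the chondrocyte panel, at 2.32 and 0.09, and Tgfb3 and Ltbp2 take opposite signs in the smooth muscle panel.

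The mixture of ligand transcripts was compared per kilobase of exon, within each library, so that it did not depend on the scaling between libraries. Tgfb3 made up 76.1% ± 1.3 (SD, n = 4) of the ligand signal in normoxic proliferating cells, Tgfb1 21.7% and Tgfb2 2.16%. At 0.5% O2 the Tgfb3 share of proliferating cells was 60.3% ± 0.677 (SD, n = 3) and that of Tgfb1 39.2%. Hypoxic smooth muscle cultures were the 1 group with a majority of Tgfb1, at 61.6% ± 3.33 (SD, n = 3), with Tgfb3 at 37.0%, where normoxic smooth muscle cultures had 6.66% Tgfb1 and 86.4% Tgfb3. Tgfb2 reached its largest share, 21.2% ± 0.866 (SD, n = 3), in hypoxic osteoblast cultures, against 5.91% ± 1.78 (SD, n = 4) in normoxic ones.

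The Tgfb3 share differed without overlap in all 12 pairwise comparisons, of which the 4 between oxygen levels each gave an exact two-sided permutation p of 0.0571, the smallest that 4 against 3 libraries allow. Adjusted over the 36 tests of shares and sums, these were 0.0935, so none of them could pass 0.05. The share was lower at 0.5% O2 in proliferating, osteoblast and smooth muscle cultures and higher in chondrocyte cultures, by 9.44 percentage points. Summed over the 3 ligands, the length-scaled level was 23.0 ± 2.84 CPM per kilobase (SD, n = 4) in normoxic proliferating cells, 103.5 ± 6.11 (SD, n = 4) in normoxic chondrocyte, 95.1 ± 4.86 (SD, n = 3) in hypoxic chondrocyte and 24 ± 0.479 (SD, n = 3) in hypoxic smooth muscle cultures. With library-size scaling the sum was 27.8 ± 3.54 CPM per kilobase (SD, n = 4) in normoxic proliferating cells and 12.8 ± 0.0848 (SD, n = 3) in hypoxic smooth muscle cultures, so the closeness of these 2 groups depends on the scaling. The chondrocyte sums at both oxygen levels overlapped (exact permutation p = 0.114).

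**Figure D3:**
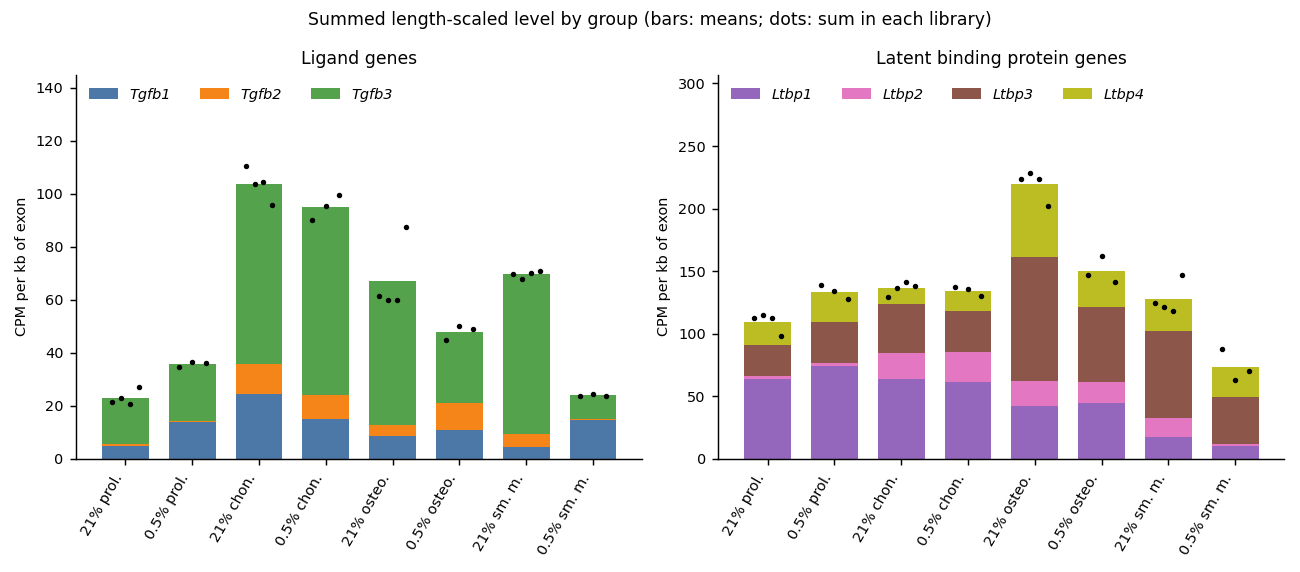
Length-scaled level in CPM per kilobase of exon of the ligand genes (left) and the latent binding protein genes (right) in the 8 groups, with stacked bars for group means and dots for the sum in each library. Tgfb3 fills most of each ligand bar except in hypoxic smooth muscle cultures, where Tgfb1 holds 61.6%, and Ltbp1 gives way to Ltbp3 in osteoblast and smooth muscle cultures.

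Ltbp1 (ENSMUSG00000001870, chromosome 17, 75005568 to 75392512, plus strand), whose product binds all latent TGF-beta forms, was high in proliferating cells, at 709.5, 720.0, 718 and 584 CPM at 21% O2 and 826, 781 and 776 CPM at 0.5% O2. Chondrocyte cultures kept that level at 21% O2, with 645, 663, 722 and 702 CPM (log2 0.03, SE 0.0753, adjusted p = 0.729), although library-size scaling gave -0.32 with an adjusted p of 0.00156. At 0.5% O2 they were 1.21-fold below proliferating cells (log2 -0.28, SE 0.0579, adjusted p = 0.000766). Osteoblast cultures differed by -0.60 (adjusted p = 0.000535) and -0.74 (adjusted p = 4.5e-08) on the log2 scale at 21% and 0.5% O2. The deepest fall was in smooth muscle cultures, which had 188, 191, 179 and 192 CPM at 21% O2 and 101, 105 and 124 CPM at 0.5% O2. Those falls were 3.72-fold (log2 -1.90, SE 0.068, adjusted p = 7.71e-13) and 6.38-fold (log2 -2.67, SE 0.0854, adjusted p = 2.6e-10), and the term for the difference was -0.80 (adjusted p = 1.65e-06). With library-size scaling the hypoxic fall was 15.5-fold (log2 -3.95) and the term -2.13.

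Ltbp2 (ENSMUSG00000002020, chromosome 12, 84783212 to 84876532, minus strand) encodes a family member that sits on elastic fibres and does not bind latent TGF-beta. Proliferating cells had 18, 17.4, 15.7 and 26.1 CPM at 21% O2 and 20.5, 17.7 and 19.4 CPM at 0.5% O2 (difference -0.01, SE 0.155, adjusted p = 0.974). Chondrocyte cultures rose 8.90-fold at 21% O2, to 167 ± 15.1 CPM (SD, n = 4), and 10.4-fold at 0.5% O2, to 200.1 ± 9.64 CPM (SD, n = 3). The difference between the chondrocyte groups was 0.24 with an adjusted p of 0.0499, and the call was lost in 13 of 16 alternatives, among them leaving out any 1 of the 7 libraries (adjusted p from 0.0506 to 0.171). Osteoblast cultures rose 8.31-fold at 21% O2 (129, 128, 131 and 256 CPM, log2 3.05, or 2.70 without replicate 4) and 7.20-fold at 0.5% O2 (138, 147 and 129 CPM).

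In smooth muscle cultures Ltbp2, like Tgfb3, was high at 21% O2 and low at 0.5% O2. Normoxic libraries had 118, 104, 107 and 167 CPM, 6.33-fold above proliferating cells (log2 2.66, SE 0.215, adjusted p = 6.27e-06). Hypoxic libraries had 7.70, 8.46 and 13.5 CPM, 11.4-fold lower (log2 -3.52, SE 0.225, adjusted p = 2.19e-08) and 1.72-fold below hypoxic proliferating cells (log2 -0.79, SE 0.20, adjusted p = 0.0043). With library-size scaling these differences were -4.88 and -2.06, or 29.4-fold and 4.17-fold. The term for the difference was -3.47 (SE 0.311, adjusted p = 8.7e-08), and -4.80 with that scaling. D030025P21Rik, on the opposite strand, overlaps 764 exonic bases of Ltbp2 and held 2231 counts in all libraries, against 88105 for Ltbp2. Whether the counting used strand is not given in the sources used here.

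Ltbp3 (ENSMUSG00000024940, chromosome 19, 5740904 to 5758532, plus strand) and Ltbp4 (ENSMUSG00000040488, chromosome 7, 27305136 to 27337692, minus strand) were highest in normoxic osteoblast cultures. Ltbp3, a carrier needed for normal bone and tooth formation, had 224, 234, 227 and 206 CPM in normoxic proliferating cells and 927, 944, 926 and 796 CPM in normoxic osteoblast cultures, 4.01-fold more (log2 2.00, SE 0.0724, adjusted p = 9.96e-09). Hypoxic osteoblast cultures had 528, 609 and 495 CPM, 1.64-fold less than normoxic ones (log2 -0.72, SE 0.107, adjusted p = 0.000458). Normoxic smooth muscle cultures had 607, 609, 590.2 and 706 CPM and hypoxic ones 422, 298 and 318 CPM (log2 -0.72, SE 0.108, adjusted p = 2.28e-05), a difference of -2.09 or 4.26-fold with library-size scaling. Hypoxic smooth muscle cultures were called above hypoxic proliferating cells at 0.40 (adjusted p = 0.00966), with overlapping groups, but library-size scaling turned this to -0.87 and the call was lost without hypoxic proliferating replicate 3 (adjusted p = 0.059). In chondrocyte cultures Ltbp3 rose 1.64-fold at 21% O2 (adjusted p = 5.98e-07) and differed by -0.01 (SE 0.0732, adjusted p = 0.906) at 0.5% O2, where library-size scaling gave -0.34 (adjusted p = 0.000753). The term for unequal change was negative in all 3 lineages, at -0.69 for chondrocyte, -1.08 for osteoblast and -1.09 for smooth muscle cultures (-2.42 with library-size scaling), each of them called.

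Ltbp4, which preferentially carries TGF-beta1 and supports elastic fibre assembly, had 391, 405, 396 and 316 CPM in normoxic osteoblast cultures and 186, 211 and 159 CPM in hypoxic ones. The hypoxic level was 2.02-fold lower (log2 -1.02, SE 0.126, adjusted p = 0.000156), and the term for osteoblast cultures was -1.35 (SE 0.14, adjusted p = 9.41e-07). Chondrocyte cultures moved the other way from osteoblast cultures, with 82.1 ± 2.83 CPM (SD, n = 4) at 21% O2, 1.44-fold below proliferating cells (adjusted p = 2.94e-06), and 105 ± 2.55 CPM (SD, n = 3) at 0.5% O2, 1.49-fold below (adjusted p = 2.36e-06). The term for Ltbp4 in chondrocyte cultures was -0.02 (SE 0.0853, adjusted p = 0.897). The hypoxic chondrocyte level was 1.27-fold above the normoxic one (log2 0.34, adjusted p = 0.00183). Hypoxic smooth muscle libraries ranged from 123 to 199 CPM and overlapped with normoxic ones at 148 to 197 CPM, a difference of 0.04 (adjusted p = 0.823) that library-size scaling turned to -1.33 (adjusted p = 1.27e-06).

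Per kilobase of exon, Ltbp1 was the leading latent binding protein transcript in proliferating cells, at 58.3% ± 1.70 (SD, n = 4) of the 4 genes at 21% O2 and 55.7% ± 1.08 (SD, n = 3) at 0.5% O2. It also led in chondrocyte cultures, at 46.8% and 45.6%. Ltbp3 led in osteoblast and smooth muscle cultures, with 45.1% ± 1.08 (SD, n = 4) and 54.3% ± 1.11 (SD, n = 4) at 21% O2, and 40.0% ± 1.43 (SD, n = 3) and 51.8% ± 1.60 (SD, n = 3) at 0.5% O2. The leading binding protein gene of each lineage was the same at both oxygen levels. Summed, the 4 genes stood at 219 ± 11.8 CPM per kilobase (SD, n = 4) in normoxic osteoblast cultures and at 149.9 ± 10.8 (SD, n = 3) in hypoxic ones, without overlap (exact permutation p = 0.0571, the smallest possible). Chondrocyte cultures had 136 ± 5.16 (SD, n = 4) and 134 ± 3.42 (SD, n = 3), with overlap.

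Tgfbr3 (ENSMUSG00000029287, chromosome 5, 107106570 to 107289629, minus strand) encodes betaglycan, a co-receptor that presents TGF-beta, TGF-beta2 above all, to the signalling receptors. It was lowest in chondrocyte cultures, at 5.38, 13.2, 13.0 and 14.2 CPM at 21% O2 and 14.7, 5.11 and 5.37 CPM at 0.5% O2. Proliferating cells had 67.0 ± 1.86 CPM (SD, n = 4) and 99.3 ± 1.53 CPM (SD, n = 3), so the falls were 5.76-fold (log2 -2.52, SE 0.247, adjusted p = 9.32e-06) and 11.7-fold (log2 -3.55, SE 0.452, adjusted p = 0.00182). Without hypoxic chondrocyte replicate 1, at 14.7 CPM, the second fall was 18.8-fold (log2 -4.23). Both chondrocyte groups held 1 library or more that differed from its partners by over 2 times, and the groups overlapped. Osteoblast cultures had 110.1, 124, 126 and 41.4 CPM at 21% O2 and 240.5, 234 and 191 CPM at 0.5% O2, the highest levels of the gene. The hypoxic group was 2.22-fold above the normoxic one (log2 1.15, SE 0.347, adjusted p = 0.0246), a call lost without hypoxic replicate 1 or 2 (adjusted p = 0.0594 and 0.0595) and with no filter on low counts (0.0894), and 2.24-fold above hypoxic proliferating cells (log2 1.16, adjusted p = 7.52e-09).

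Normoxic replicate 4 bore on the osteoblast values of Tgfbr3. Against normoxic proliferating cells the difference was 0.57 (SE 0.286, adjusted p = 0.0927) with all 4 libraries and 0.79 (SE 0.054, adjusted p = 1.49e-08) without it. In smooth muscle cultures the gene had 75.1 ± 1.83 CPM (SD, n = 4) at 21% O2 and 73.7 ± 8.25 CPM (SD, n = 3) at 0.5% O2, a difference of 0.11 (adjusted p = 0.255) that became -1.25 with library-size scaling. In proliferating cells the gene was 1.48-fold higher at 0.5% O2 (log2 0.56, SE 0.0484, adjusted p = 2.08e-07), a call lost with all 8 groups in 1 fit (0.51, adjusted p = 0.209). Gm43422, on the same strand, shares 297 exonic bases with Tgfbr3 and held 113 counts in all.

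Tgfbi (ENSMUSG00000035493, chromosome 13, 56609523 to 56639562, plus strand) encodes a secreted matrix protein that binds collagen and integrins and is a classic TGF-beta-induced gene. Its highest level was in hypoxic smooth muscle cultures, at 1236, 1324 and 1263 CPM, a group with a summed ligand level of 24 CPM per kilobase (12.8 with library-size scaling). Normoxic smooth muscle cultures had 204, 219, 205 and 174 CPM, so the gene was 6.99-fold higher at 0.5% O2 (log2 2.81, SE 0.086, adjusted p = 3.34e-13), or 1.43 on the log2 scale with library-size scaling. The term for unequal change was 1.48 (SE 0.111, adjusted p = 8.18e-11), and 0.15 (adjusted p = 0.239) with library-size scaling, and the call was also lost with all 8 groups in 1 fit (1.44, adjusted p = 0.13). Cd68, a macrophage marker, was also highest in that group, at 34.0 CPM against at most 5.22 CPM in any other group mean. The summed level of the 6 markers of other cell types was 35 to 38.1 CPM there and 0.399 to 8.36 CPM in the other 25 libraries, while Ptprc, the pan-leukocyte marker, was at 0.0913 CPM and Cdh5, an endothelial marker, at 0.0303 CPM. Their part in the Tgfbi level was not tested.

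In proliferating cells Tgfbi went from 62.3, 62.7, 61.4 and 71.1 CPM at 21% O2 to 154, 162 and 182 CPM at 0.5% O2, a 2.57-fold rise (log2 1.36, SE 0.0675, adjusted p = 1.03e-09) whose call was lost with all 8 groups in 1 fit (1.31, adjusted p = 0.0667). Chondrocyte cultures had 451, 559, 610.2 and 393 CPM at 21% O2 and 528, 719.5 and 695 CPM at 0.5% O2, 7.99-fold and 3.90-fold above proliferating cells. The hypoxic and normoxic chondrocyte groups overlapped (difference 0.35, SE 0.171, adjusted p = 0.194). With replicate number as a block in the fit, the difference was 0.24 and passed the threshold (adjusted p = 0.0434). The term for unequal change was -1.0 (SE 0.206, adjusted p = 0.00135). The fit to all 8 groups lost this call as well (adjusted p = 0.406).

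Osteoblast cultures gave a Tgfbi value that rested on 1 library. Normoxic replicates 1 to 3 held 26.9, 28 and 30.4 CPM and replicate 4 held 325 CPM, while hypoxic libraries held 128, 121 and 142 CPM. With replicate 4, the normoxic change from proliferating cells was 0.67 (SE 0.789, adjusted p = 0.45). Without it the gene fell by 1.23 on the log2 scale (SE 0.070, adjusted p = 2.28e-09). The oxygen difference likewise went from 0.34 (SE 1.04, adjusted p = 0.803) to 2.20 (SE 0.080, adjusted p = 1.4e-10), and the term for unequal change from -0.98 (adjusted p = 0.495) to 0.89 (adjusted p = 4.13e-07). At 0.5% O2, osteoblast cultures were 1.27-fold below proliferating cells (log2 -0.35, SE 0.0804, adjusted p = 0.00125), a call lost with all 8 groups in 1 fit (-0.34, adjusted p = 0.652). Replicate 4 also had the highest chondrocyte marker sum of its group (2829 CPM for Col2a1, Acan, Col11a1 and Sox9, against 1824 to 1860 CPM), in which Col11a1 alone was lower than in its partners. Its osteoblast marker sum (148 against 63.5 to 73.7 CPM) and smooth muscle marker sum (4749 against 3103 to 3253 CPM) were the highest as well. The part of these markers in its Tgfbi level was not tested.

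**Figure D4:**
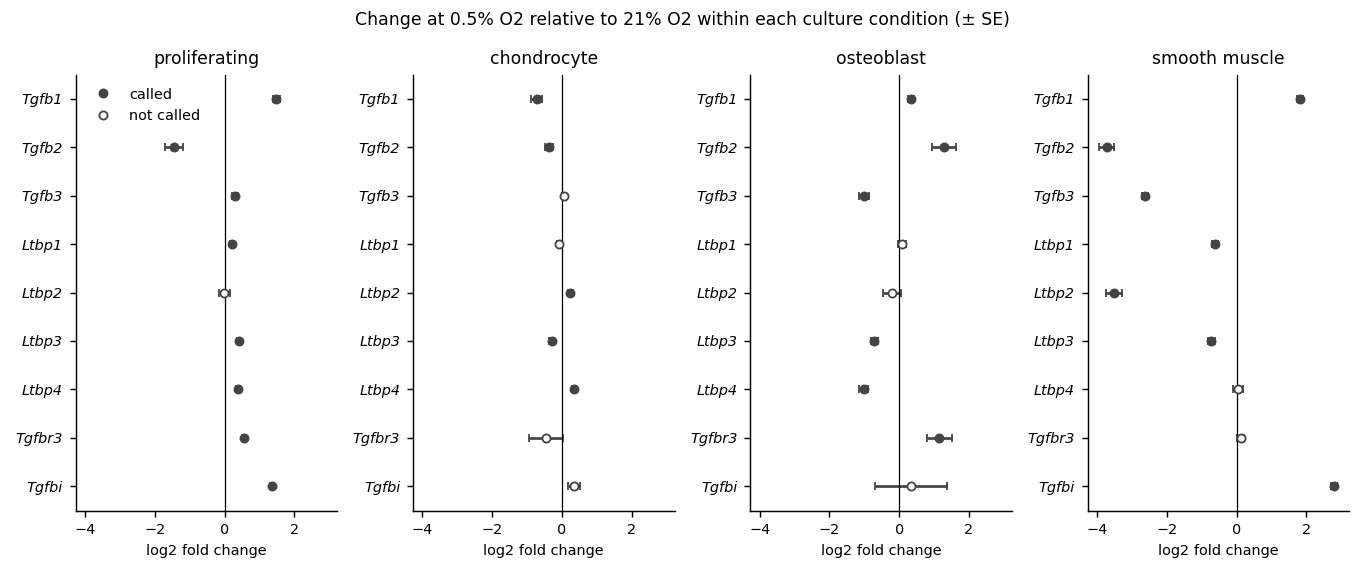
Log2 fold change of each gene at 0.5% O2 relative to 21% O2 in proliferating, chondrocyte, osteoblast and smooth muscle cultures, with bars for ± SE and open symbols where the gene was not called. Tgfb1 is raised in 3 panels and lowered in the chondrocyte panel, and the wide bar of Tgfbi in the osteoblast panel (SE 1.04) comes with replicate 4 at 325 CPM.

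Counted over the 9 genes, the term for unequal change was called positive in 1 and negative in 4 for chondrocyte cultures, where 21.6% of 15310 genes were positive and 21.9% negative, or in 1 and 2 with all 8 groups in 1 fit. Osteoblast cultures also gave 1 and 4 (28.9% and 25.3% of all genes), and 3 and 4 without normoxic replicate 4. Smooth muscle cultures gave 2 and 6 (34.9% and 35.5%), and 0 and 8 with library-size scaling (12.9% and 64.7% of all genes), under which Tgfb1 turned from 0.37 to -0.96. With all 8 groups in 1 fit they gave 0 and 5. With TMM scaling, Ltbp3 was the 1 gene with a negative call in all 3 lineages, and with library-size scaling Tgfb1 was called negative in all 3 as well. Tgfb2 was positive for chondrocyte (1.05, SE 0.268, adjusted p = 0.00448) and osteoblast cultures and negative for smooth muscle cultures (-2.26, SE 0.332, adjusted p = 2.85e-06, and -3.59 with library-size scaling). Its chondrocyte call was lost with limma-voom (adjusted p = 0.0713).

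Chondrocyte and osteoblast cultures both passed through osteogenic medium, and the comparison between them sets a medium with TGF-beta3 beside one without. At 21% O2, Tgfb1 was 2.85-fold (log2 1.51, SE 0.121, adjusted p = 6.32e-06) and Tgfb2 2.77-fold higher in chondrocyte cultures (log2 1.47, or 1.92 without osteoblast replicate 4). Tgfb3 differed by 0.31 (SE 0.124, adjusted p = 0.0523), a difference that passed in 8 of 17 alternatives, among them DESeq2 (adjusted p = 0.022) and leaving out that replicate (0.47, adjusted p = 7.58e-06). Ltbp3 and Ltbp4 were 2.52-fold and 4.59-fold lower, and Tgfbr3 8.79-fold lower (log2 -3.14, SE 0.42, adjusted p = 0.000253). Tgfbi was higher by 2.29 with an adjusted p of 0.0553, and by 4.15 (adjusted p = 1.41e-07) without osteoblast replicate 4. At 0.5% O2, Tgfb3 was 2.67-fold (log2 1.41, SE 0.0832, adjusted p = 1.86e-08) and Tgfbi 5.00-fold higher (log2 2.32, SE 0.123, adjusted p = 1.13e-08), and Tgfbr3 26.0-fold lower (log2 -4.70, SE 0.504, adjusted p = 0.00109), or 41.9-fold (log2 -5.39) without hypoxic chondrocyte replicate 1.

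A list of 9 TGF-beta target and feedback genes was described beside them. Between chondrocyte and osteoblast cultures, 6 were called higher and 1 lower at 21% O2 (28.6% and 31.1% of all genes, and a median of 0.46 beside -0.03 over all genes), and 3 and 1 with library-size scaling (20.9% and 40.0% of all genes). At 0.5% O2 the counts were 6 and 2 (28.6% and 29.0% of all genes, median 0.88 beside 0.01). Pmepa1, a feedback inhibitor of Smad signalling, was at 500.1 ± 26.2 CPM (SD, n = 4) in normoxic chondrocyte and 163 ± 10.8 CPM (SD, n = 4) in normoxic osteoblast cultures (log2 1.62, SE 0.0745, adjusted p = 2.95e-07). At 0.5% O2 it was at 400.2 ± 9.40 CPM (SD, n = 3) in hypoxic chondrocyte and 46.9 ± 6.73 CPM (SD, n = 3) in hypoxic osteoblast cultures (log2 3.10, SE 0.112, adjusted p = 3.24e-10). The call in the other direction at both oxygen levels was Tgfb1i1, which encodes the focal adhesion protein Hic-5, at -0.53 and -0.88.

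**Figure D5:**
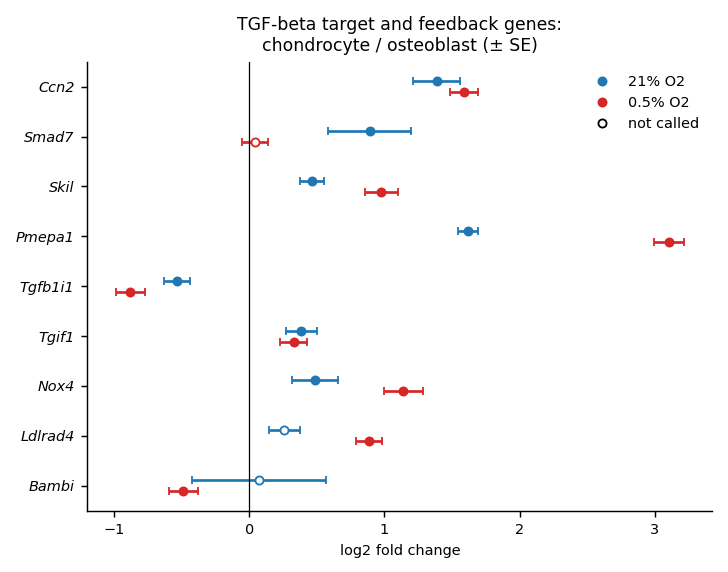
Log2 fold change between chondrocyte and osteoblast cultures of the 9 target and feedback genes, in blue at 21% O2 and red at 0.5% O2, with bars for ± SE and open symbols where the gene was not called. Pmepa1 is farthest to the right at both oxygen levels, at 1.62 and 3.10, while Tgfb1i1 lies left of 0 at both.

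Against proliferating cells, 8 of the 9 targets were called higher and 1 lower in chondrocyte cultures at both oxygen levels (medians 2.33 and 1.44), where 37.7% and 34.9% of all genes were higher. Pmepa1 rose by 5.83 and 6.38 on the log2 scale, and Tgif1, a transcriptional corepressor, was the gene that fell (-0.53 and -1.13). In osteoblast cultures 7 were higher and 1 lower at 21% O2 (median 1.63, with 40.9% and 37.8% of all genes called) and 8 and 1 at 0.5% O2 (median 1.59, with 36.2% and 35.1%). Smooth muscle cultures had 4 higher and 2 lower at 21% O2 (median 0.42, with 40.8% and 38.9% of all genes called), with Pmepa1 at 2.02 and Bambi, a decoy receptor, at -1.32. At 0.5% O2 the counts were 4 and 3 (median 0.90, with 33.8% and 36.2% of all genes called), and library-size scaling left 0 and 4 (median -0.37, with 12.4% and 70.6%). In hypoxic smooth muscle cultures, which had the highest Tgfbi level, the matrix signalling gene Ccn2 was at 24.4 ± 8.59 CPM (SD, n = 3), below hypoxic proliferating cells at 85.1 ± 10.6 CPM (SD, n = 3; log2 -1.61, SE 0.199, adjusted p = 2.14e-05, and -2.88 with library-size scaling).

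Genes for the fibres that store the latent complex (Fbn1, Fbn2, Fn1 and Emilin1) were all called higher than in proliferating cells in each normoxic lineage, where 37.7%, 40.9% and 40.8% of all genes were, with medians of 2.83 in chondrocyte, 1.77 in osteoblast and 1.63 in smooth muscle cultures. At 0.5% O2, 3 were higher and 1 lower in chondrocyte cultures (34.9% and 34.6% of all genes) and in osteoblast cultures (36.2% and 35.1%). In smooth muscle cultures 1 was higher and 3 lower (33.8% and 36.2%), or 0 and 4 with library-size scaling (12.4% and 70.6%). Fbn2, which encodes fibrillin-2, had the lowest term for unequal change of the 4 in every lineage, at -2.18, -2.82 and -4.77 (-6.10 in smooth muscle cultures with library-size scaling). Its level was 308 ± 18.9 CPM (SD, n = 4) in normoxic and 16.2 ± 3.72 CPM (SD, n = 3) in hypoxic smooth muscle cultures (log2 -4.10, SE 0.129, adjusted p = 4.73e-13, and -5.47 with library-size scaling). In the same cultures Tgfb3 and Ltbp2 were lower at 0.5% O2.

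Of 12 genes for release of active ligand, 9 to 11 passed the count filter per comparison. In normoxic chondrocyte cultures 9 of 10 were called higher and 1 lower (37.7% and 37.2% of all genes), with Itgb3, an integrin subunit, up from 0.849 ± 0.217 to 149 ± 8.23 CPM (SD, n = 4 each; log2 7.51, SE 0.124) and Itgb8 down (log2 -2.46). Thbs1, which encodes the TGF-beta-activating protein thrombospondin-1, led the rises in normoxic osteoblast cultures (log2 5.68) and in normoxic smooth muscle cultures (log2 3.57). Comparing hypoxic with normoxic smooth muscle cultures, 8 of 10 were lower and 1 higher, where 40.2% of all genes were lower (10 and 0 with library-size scaling, where 72.6% were), and Thbs1 differed by -4.48 on the log2 scale (SE 0.129, adjusted p = 1.68e-13), or -5.85 with that scaling. The 4 receptor genes of the list were Tgfbr1, Tgfbr2, Eng and Acvrl1. Acvrl1, a type I receptor, was higher at 0.5% O2 in all 4 culture conditions, by 2.16, 0.91, 1.92 and 3.69 in proliferating, chondrocyte, osteoblast and smooth muscle cultures (2.32 in the last with library-size scaling). Tgfbr2, the type II receptor, was lower in the 3 differentiated ones, by -0.69, -0.75 and -2.23 (-3.61 in smooth muscle cultures with library-size scaling), and at 25.4 ± 5.93 CPM (SD, n = 3) in hypoxic smooth muscle cultures against 131 ± 5.67 CPM (SD, n = 4) in normoxic ones.

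The extracellular inhibitors Dcn, Bgn, Fmod and Aspn, small proteoglycans that can bind TGF-beta, were all called higher than in proliferating cells in each normoxic lineage (37.7%, 40.9% and 40.8% of all genes). Fmod (fibromodulin) had 1 count in the 4 normoxic proliferating libraries together and 1812 ± 63.2 CPM (SD, n = 4) in normoxic chondrocyte cultures. It had no count in any hypoxic smooth muscle library and 38.4 ± 13.2 CPM (SD, n = 4) in the normoxic ones. Between the chondrocyte groups, 1 of the 4 inhibitor genes was called higher and 2 lower at 0.5% O2 (10.4% and 11.8% of all genes, median -0.38). Dcn (decorin) was at 2.18 ± 0.927 CPM (SD, n = 3) in hypoxic and 54.5 ± 22.6 CPM (SD, n = 4) in normoxic chondrocyte cultures (log2 -4.66, SE 0.516, adjusted p = 0.00171). Of the 7 intracellular genes, 5 were higher and 2 lower at 0.5% O2 in proliferating, 2 and 1 in chondrocyte, 4 and 0 in osteoblast and 1 and 5 in smooth muscle cultures (0 and 7 with library-size scaling). The shares of all genes called higher and lower were 33.1% and 32.3%, 10.4% and 11.8%, 27.0% and 27.3%, and 35.4% and 40.2% (13.4% and 72.6% in smooth muscle cultures with library-size scaling). Smurf2, a ubiquitin ligase that targets the receptors, was the largest rise in the first 3 of these, at 0.50, 0.68 and 1.31.

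Likeness between profiles was described with Pearson's r of log2(CPM + 1) over the 28 libraries, which share their groups and scaling. Among the 9 genes, Tgfb2 and Ltbp2 were the most alike (r = 0.95), followed by Tgfb3 and Ltbp2 (r = 0.92), Tgfb2 and Tgfb3 (r = 0.82) and Ltbp3 and Ltbp4 (r = 0.78). Tgfb1 was not close to either other ligand (r = 0.23 with Tgfb2 and 0.10 with Tgfb3). Over the 25 libraries without hypoxic smooth muscle cultures these values were 0.95, 0.88, 0.78, 0.79, 0.37 and 0.34. Over all genes, the pair most like each was Pck2 and Ostf1 for Tgfb1, Epha3 and Galnt10 for Tgfb2, and Ccdc80 and Txndc5 for Tgfb3. For the binding protein genes it was Lars and Iars for Ltbp1, Msrb3 and Tspan2 for Ltbp2, Lix1l and Csad for Ltbp3, and Smarca2 and Slc2a4 for Ltbp4. For Tgfbr3 it was Syne3 and Kitl, and for Tgfbi Ntan1 and Has2os. The 18 values of r ran from 0.88 to 0.98, and 5 of the 18 genes were still among the closest pair without hypoxic smooth muscle cultures.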

How the data were processed

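RNA sequencing libraries of 28 O9-1 samples were analysed from a deposited table of whole-number read counts per Ensembl gene, the authors' own output. The submitters' processing notes name HISAT2 2.0.5, StringTie 1.3.3b, featureCounts 1.5.0-p3 and the genome build mm10, with no order or settings. Per the file headers, 10 further deposited tables hold a log2 fold change per gene. Their 70 columns of single-library values were not used. Of 90 log2 fold changes of the 9 genes in the authors' deposited tables, 90 had the sign found here and 84 lay within 0.1.

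Counts were tested with edgeR 4.0.16 under R 4.3.3 (quasi-likelihood, robust, two-sided; TMM scaling; filterByExpr with 10 counts and a total of 15). Each of 12 pairwise comparisons was fitted to its own pair of groups and each of 3 interaction terms (hypoxic minus normoxic change from the proliferating state) to 4 groups. The test was checked on simulated counts. Because TMM factors are set within each fit, a fold change need not equal the ratio of the CPM means, which were scaled over all libraries. Exon lengths come from GENCODE M21 on GRCm38, and promoter sequences from RefSeq on GRCm38.p6. Alternatives were library-size and median-of-ratios scaling, 2 other filters, DESeq2 1.42.0, limma-voom 3.58.1, 1 fit to all 8 groups, the replicate block and leaving out each library. Replicates 1 to 3 of the normoxic groups alone were added after seeing the data. The genes and lists were chosen with earlier results of these data known. A gene of the target list and 1 overlap are not reported here, and the list's counts leave that gene out. Named were all 9 genes, from each pathway list the called gene with the largest change each way, and for each of the 9 the 2 genes of highest r. Replicate 4 has no hypoxic counterpart. Library totals were 19869271 counts or more, and the precision of a level follows from its counts, which are given for the lowest genes.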

Additional observations from a re-analysis of the deposited data

Results flagged for a closer look

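The 9 genes in each normoxic group of 4 libraries gave 36 sets of values. Of these, 14 had a highest or lowest library farther from the rest than Dixon's 95% critical value allows. The sets share their libraries and are not separate trials, so the count cannot be set against a rate expected by chance. Of the 14, 12 were replicate 4 and 7 were replicate 4 of the normoxic osteoblast group. That library held Tgfbi at 325 CPM (others 26.9 to 30.4), Tgfb2 at 43.3 CPM (16.3 to 18.5), Tgfb3 at 240.2 CPM (164 to 168), Ltbp2 at 256 CPM (128 to 131), Ltbp1 at 365 CPM (476 to 491), Ltbp3 at 796 CPM (926 to 944) and Ltbp4 at 316 CPM (391 to 405). In the normoxic proliferating group, replicate 4 held Tgfb1 at 31.4 CPM, Tgfb2 at 4.08 CPM, Tgfbi at 71.1 CPM and Ltbp1 at 584 CPM. In normoxic smooth muscle cultures, replicate 4 held Ltbp3 at 706 CPM and replicate 2 held Tgfb3 at 197 CPM. Replicate 1 of the normoxic chondrocyte group held Tgfbr3 at 5.38 CPM, against 13.0 to 14.2 CPM in its partners.

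The change from the proliferating state differed between oxygen levels by an interaction term of edgeR's quasi-likelihood test in 18 cases, given as log2 differences, hypoxic minus normoxic. In chondrocyte cultures these were Tgfb1 at -2.19, Tgfbi at -1.0 (a call lost with all 8 groups in 1 fit, adjusted p = 0.406), Ltbp3 at -0.69, Ltbp1 at -0.28 and Tgfb2 at 1.05. In osteoblast cultures they were Ltbp4 at -1.35, Tgfb3 at -1.27, Tgfb1 at -1.10, Ltbp3 at -1.08 and Tgfb2 at 2.76. In smooth muscle cultures they were Ltbp2 at -3.47, Tgfb3 at -2.88, Tgfb2 at -2.26, Ltbp3 at -1.09, Ltbp1 at -0.80, Tgfbr3 at -0.41, Tgfb1 at 0.37 and Tgfbi at 1.48. With library-size scaling these were -4.80, -4.22, -3.59, -2.42, -2.13, -1.74, -0.96 and 0.15 in the same order. With all 8 groups in 1 fit the calls of Tgfbr3 (adjusted p = 0.402), Tgfb1 (0.09) and Tgfbi (0.13) were lost. The Ltbp1 term in chondrocyte cultures had an adjusted p of 0.0393, and the call was lost in 10 of 23 alternatives, among them all 8 groups in 1 fit (0.179) and leaving out any 1 hypoxic proliferating or hypoxic chondrocyte library or normoxic chondrocyte replicate 3 or 4 (0.0513 to 0.102).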

How the results depend on the processing

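Scaling by library size alone reversed Ltbp1 in normoxic chondrocyte against proliferating cells (-0.32), Tgfb1 (-1.02), Ltbp3 (-0.87) and Ltbp4 (-1.12) in hypoxic smooth muscle against hypoxic proliferating cells, Ltbp4 (-1.33) and Tgfbr3 (-1.25) between hypoxic and normoxic smooth muscle cultures, and the smooth muscle interaction of Tgfb1 (-0.96). Without normoxic osteoblast replicate 4, Tgfbi reversed to -1.23 against proliferating cells and to 0.89 in the osteoblast interaction, and with normoxic replicates 1 to 3 alone to -1.18 and 0.83. Leaving out 1 library at a time gave -1.23 to 0.99 for the first and -1.3 to 0.89 for the second. The called genes among the 9 fell from 5 to 3 between hypoxic and normoxic chondrocyte cultures with limma-voom and with all 8 groups in 1 fit. The 1 fit also gave 5 in place of 8 for proliferating cells, 3 in place of 5 for the chondrocyte and 5 in place of 8 for the smooth muscle interaction. Leaving out 1 library gave 2 to 4 called genes for the chondrocyte oxygen comparison (5 with all), the lowest without normoxic replicate 2 or 3 or hypoxic replicate 2 or 3, and 4 to 8 for hypoxic smooth muscle against proliferating cells (7 with all), the lowest without hypoxic proliferating replicate 3. Scaling moved the share of higher calls among all called genes from 46.8% to 15.6% between the smooth muscle groups and from 50.3% to 34.7% for normoxic chondrocyte cultures.

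Replicate numbers did not pair the libraries: deviations of same-numbered libraries correlated between -0.28 and 0.11, with every pair over 0.1 in 0 of 12 comparisons. With the replicate block, 128 of 135 calls were the same, 5 were gained and 2 lost, and Tgfbi between the osteoblast groups was 2.21. DESeq2 gave no adjusted p for Tgfbi in 3 fits. Counts of 18 to 38 per library limit Tgfb2 in hypoxic proliferating and hypoxic smooth muscle cultures.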
